A study of Mus musculus with 21 samples.

Results

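Macrophages labelled as lacking Nur77 and wild-type (WT) macrophages were compared for how their RNA changed after 18 h of lipopolysaccharide (LPS). For each gene the log2 change in labelled-KO cells (18 h minus 0 h) was set against the log2 change in WT cells, and the difference between those changes is called the interaction. A positive interaction means a response that was higher in labelled-KO cells, which can be a larger rise or a smaller fall. The comparison took in the 14 libraries of the 2 times, of 21 in the series: 3 labelled KO and 4 WT at 18 h, and 3 labelled KO and 4 WT at 0 h. Of 25067 genes, 12529 had enough counts to be tested. The 7 libraries taken at 4 h entered the fit only through the estimate of the spread, and their values are given near the end.

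The cells were bone marrow-derived macrophages of male C57Bl6/J mice aged 6 to 12 weeks, grown from marrow for 7 days with medium conditioned by L929 cells, a fibroblast line that releases the macrophage growth factor CSF1. The labelled-KO libraries at 18 h came from Nur77-KO cells given LPS at 100 ng/ml, and those at 0 h from untreated cells of that label. The WT libraries were taken from WT cells in the same way. The genotype tag reads cre for the labelled-KO libraries and wt for the WT libraries, and the sources used here do not give the deleted site or its mode of deletion. The libraries carry numbers (2 to 4 in labelled KO, 1 to 4 in WT). Nothing says that they came from separate mice. The p-values then measure only the spread between these samples, which may be technical.

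Nur77 is an orphan nuclear receptor encoded by Nr4a1 and belongs with the products of Nr4a2 and Nr4a3 to a family whose members bind DNA at a shared element. Nr4a1 is an immediate early gene, one that is transcribed within minutes of a stimulus without new protein synthesis, and in macrophages Nur77 is known for restraining inflammatory gene expression and for setting how the citric acid cycle runs. LPS binds TLR4 with its co-receptors and activates NF-kB, the MAP kinases that act on AP-1 factors, and the interferon regulatory factors. The first wave of induced genes includes both the cytokines and the inhibitors that later damp them, so a response measured after many hours reflects what is still transcribed or still stable.

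Counts in genes came to 12500551 to 26400142 per library in the 14 libraries, and values below are CPM, counts scaled to library size. The summed level of 15 macrophage markers was 18430 to 19797 CPM in labelled-KO and 18497 to 20209 CPM in WT libraries at 18 h, and 23630 to 25065 CPM in labelled-KO and 22692 to 23540 CPM in WT libraries at 0 h, so the macrophage label held in every library. Markers of other cells were unequal. The 14 neutrophil markers summed to 328 to 462 CPM in labelled-KO and 190 to 277 CPM in WT libraries at 18 h, and to 79.2 to 135 CPM in labelled-KO and 28.3 to 49.1 CPM in WT libraries at 0 h. Most of the 18 h sums was Lcn2, a gene that LPS also induces in macrophages. Lcn2 had 236 to 351 CPM in labelled-KO and 143 to 230 CPM in WT libraries at 18 h. At 0 h it had at most 8.38 CPM. The 15 stromal markers summed to 60.2, 246 and 1030 CPM in labelled-KO numbers 2, 3 and 4 and to 20 to 82.6 CPM in WT libraries at 18 h, and to 170 to 301 CPM in labelled-KO and 6.52 to 182 CPM in WT libraries at 0 h. Labelled-KO number 4 stood apart at 18 h by that list, so results that rest on it are given with and without it. By the chi-square of counts per gene, WT number 1 stood apart at 0 h, at 28.5 to 33.3 from the other WT libraries, which lay 8.1 to 13.8 from each other, and likewise at 4 h (43.6 to 69.0 against 6.99 to 13.2). Labelled-KO number 3 at 18 h lay 23.2 and 26.4 from numbers 2 and 4, which lay 13.1 from each other. This measure rises with depth where libraries differ beyond sampling noise. WT number 1 at 0 h had the most counts in genes of the 14 libraries (26400142). Without WT number 1 at 0 h the interactions described below numbered 1890 in place of 2202, and without labelled-KO number 3 at 18 h they numbered 1951. Erythroid Hbb-bs, Hbb-bt, Hba-a1 and Hba-a2, T cell Trac and mast cell Ms4a2 and Fcer1a were at 0 in all 14 libraries. Other members of these lists had counts. The 8 mast cell markers summed to 66.7 to 67.7 CPM in labelled-KO and 26.2 to 33.3 CPM in WT libraries at 18 h. At 0 h they summed to at most 1.09 CPM. The 12 T and NK markers summed to 4.12 to 5.76 CPM in labelled-KO and 2.5 to 3.94 CPM in WT libraries at 18 h. At 0 h these sums were 16.8 to 21.4 CPM and 16.9 to 23.4 CPM. Dendritic and endothelial sums overlapped between genotypes at both times. In bulk libraries fewer cells of a type and less RNA per cell cannot be told apart.

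The targeted gene was read first. Nr4a1 (NM_010444; mm10 chromosome 15, 101253902 to 101274795) had 2.96, 2.1 and 3.48 CPM in labelled-KO and 1.04, 1.33, 0.965 and 1.08 CPM in WT libraries at 18 h. At 0 h Nr4a1 had 12.4, 12.2 and 12.4 CPM in labelled-KO and 13.4, 16.2, 15.2 and 14 CPM in WT libraries. At 18 h every labelled-KO library was above every WT library, while at 0 h every labelled-KO library was below every WT library by a small margin. Nr4a1 RNA thus went against the label at 18 h and did not check it at 0 h, where the genotype difference was -0.25 on the log2 scale (edgeR's quasi-likelihood test, Benjamini-Hochberg adjusted p = 0.75). The libraries are therefore called labelled KO throughout, and counts summed over a whole transcript do not check a deletion of part of it. The LPS response of Nr4a1 was -2.10 in labelled-KO and -3.70 in WT cells on the log2 scale, an interaction of 1.60 ± 0.53 (SE; adjusted p = 0.043). That call ended under 15 of 27 alternatives, with values of 1.13 to 1.77.

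Across all genes, 2202 of 12529 (17.6%) had an interaction at an adjusted p under 0.05. Of these, 1074 (8.57% of the genes tested) responded higher in labelled-KO cells and 1128 (9%) lower, and 584 did so by at least 2-fold, 376 higher and 208 lower. The median interaction of all genes tested was -0.01 on the log2 scale. The share of calls that were higher was 48.8%, against 58.6% with median-of-ratios factors and with DESeq2 and 41.8% with upper-quartile factors, so the balance between both directions moved with the scaling. Without labelled-KO number 4 at any time the calls numbered 1268, 692 higher and 576 lower. With the mean of the neutrophil markers as a covariate they numbered 1244, 712 higher and 532 lower. Of the 9 tested neutrophil markers, 8 were themselves higher in labelled-KO cells at 0 h and 6 at 18 h. That fit thus cannot separate them from genotype, and their part in the interactions was not tested.

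Most interactions were larger responses in labelled-KO cells in the direction that WT cells also took. Of the 2202 genes, 644 rose in both genotypes with a higher response in labelled-KO cells and 633 fell in both with a lower response in labelled-KO cells. Another 154 rose in labelled-KO cells with no call in WT cells, and 312 fell in labelled-KO cells with no call in WT cells. Responses that were smaller in labelled-KO cells were fewer: 108 genes fell in both and 53 rose in both. Among the 1438 genes that changed in one direction in both genotypes, 1277 (88.8%) changed more in labelled-KO cells, and this share ran from 83.9% to 91.7% across the alternatives. LPS itself changed 9143 genes (73%) in labelled-KO cells and 8913 (71.1%) in WT cells.

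The interactions were then sorted by whether a genotype difference was already present before LPS. KO minus WT at 18 h was called for 4034 genes (32.2%), 2074 higher (16.6%) and 1960 lower (15.6%), and KO minus WT at 0 h for 499 genes (3.98%), 139 higher (1.11%) and 360 lower (2.87%). Of the 2202 genes with an interaction, 1789 (81.2%) differed between genotypes only at 18 h, 812 of them higher and 977 lower in labelled-KO cells. A further 109 (5.0%) passed the test only at 0 h. Another 98 differed at both times: 77 with opposite signs, 10 with a difference that was wider at 18 h and 11 with one that was narrower. The remaining 206 passed the test at neither time alone. Outside these, 160 genes differed at both times in one direction with no interaction called, 68 higher and 92 lower in labelled-KO cells, and their median absolute interaction was 0.25 on the log2 scale. These classes use the same libraries as the interaction and describe it, and a difference that missed the test need not be 0.

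**Figure D1:**
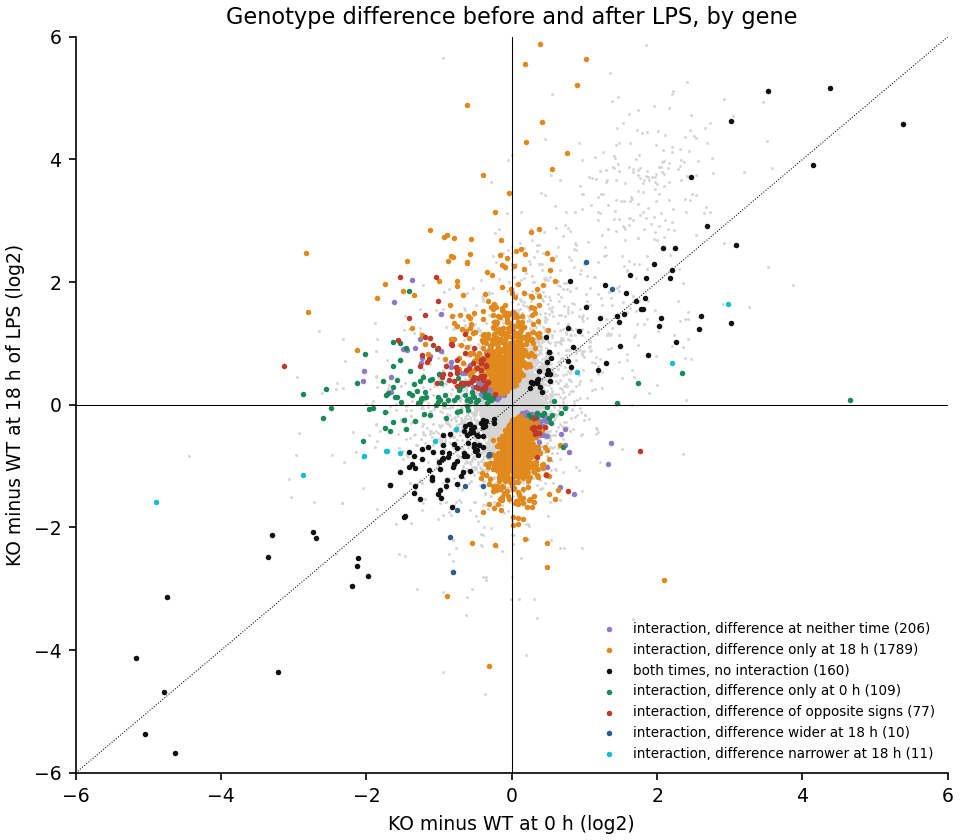
Each point is 1 gene, with KO minus WT at 0 h on the x axis and KO minus WT at 18 h of LPS on the y axis, both in log2, coloured by class with the number of genes in brackets; grey points are genes in none of the classes, the dotted line marks equal differences, and 9 genes lie outside the axes. The 1789 genes that differed only at 18 h run up and down the vertical axis, the 160 with a lasting difference lie along the dotted line, and the grey points at the upper right include the stromal markers, 12 of 13 of which were higher in labelled-KO cells at 18 h (median 3.47) with no interaction called.

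Genes that differed only at 18 h and had at least 10 CPM in some group were ranked by the size of their interaction. The largest positive ones were those of Slamf1, Lipg, Nos2, Tmtc2, Ptgs2, Ch25h, Apol9b and Il6. Nos2, the inducible nitric oxide synthase, had 716, 552 and 900 CPM in labelled-KO and 105, 123, 170 and 171 CPM in WT libraries at 18 h. At 0 h Nos2 had 0.265, 0.0493 and 0.185 CPM in labelled-KO and 0.0266, 0.0362, 0.919 and 1.22 CPM in WT libraries. Every labelled-KO library was above every WT library at 18 h, and the groups overlapped at 0 h. LPS raised Nos2 by 12.03 in labelled-KO and 8.24 in WT cells on the log2 scale, an interaction of 3.79 ± 0.95 (adjusted p = 0.0093) that limma-voom did not call (range 2.49 to 4.32). KO minus WT of Nos2 was 2.35 at 18 h and -1.44 at 0 h, where it was not called (adjusted p = 0.51). Part of that interaction thus came from the 0 h libraries, where the labelled-KO group held 11 counts. Ptgs2, the inducible cyclooxygenase that starts prostaglandin synthesis, had 494, 559 and 447 CPM in labelled-KO and 96.7, 96.3, 114 and 88.4 CPM in WT libraries at 18 h. At 0 h Ptgs2 had 1.11, 0.493 and 1.37 CPM in labelled-KO and 0.506, 1.16, 4.2 and 2.2 CPM in WT libraries. The groups were again apart at 18 h and overlapping at 0 h. The interaction of Ptgs2 was 3.22 ± 0.55 (adjusted p = 0.0005) and held under every alternative. Its KO minus WT was 2.34 at 18 h and -0.88 at 0 h, where it was not called (adjusted p = 0.41).

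Il6, the gene of the pyrogenic cytokine interleukin-6, had 80.8, 99.8 and 59.5 CPM in labelled-KO and 24.7, 17.9, 17.5 and 18.6 CPM in WT libraries at 18 h. At 0 h Il6 had 0.318, 0.0493 and 0.037 CPM in labelled-KO and 0.133, 0, 0.569 and 0.422 CPM in WT libraries. Ch25h, the enzyme that makes 25-hydroxycholesterol, had 73.6, 46.9 and 67.4 CPM in labelled-KO and 12.3, 10.1, 13.5 and 10.1 CPM in WT libraries at 18 h, and under 0.4 CPM in every library at 0 h. Apol9b, an apolipoprotein L gene with a close copy, so that its counts are uncertain, had 51.9, 53.2 and 44.6 CPM in labelled-KO and 25.5, 24, 29.9 and 28.2 CPM in WT libraries at 18 h. At 0 h Apol9b had 0.106, 0.0985 and 0 CPM in labelled-KO and 0.532, 0.109, 0.0876 and 0.328 CPM in WT libraries. All 3 genes were near 0 before LPS and apart between genotypes after it. KO minus WT at 18 h was 2.02 for Il6, 2.46 for Ch25h and 0.89 for Apol9b on the log2 scale. At 0 h it was -1.0, -0.57 and -2.13, from few counts and with none called (adjusted p = 0.66, 0.82 and 0.23). More of the Apol9b interaction thus came from the 0 h libraries, where its labelled-KO group held 4 counts, than from 18 h. Their interactions were 3.02 ± 0.92 (adjusted p = 0.028), 3.03 ± 0.92 (adjusted p = 0.027) and 3.02 ± 0.88 (adjusted p = 0.023), and the calls ended under 7, 7 and 5 alternatives, in each case including limma-voom, the neutrophil covariate and the fit without labelled-KO number 4. Across the alternatives the values ran from 2.43 to 4.40 for Il6, from 2.00 to 3.31 for Ch25h and from 2.25 to 3.47 for Apol9b.

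Tmtc2, a transmembrane protein of the endoplasmic reticulum, had 13.1, 13.8 and 16.9 CPM in labelled-KO and 2.62, 2.27, 3.3 and 2.78 CPM in WT libraries at 18 h, and its interaction of 3.26 ± 0.41 (adjusted p = 2.6e-05) held under every alternative. Slamf1, a self-binding receptor of leukocytes, had 25.3, 21.9 and 29.2 CPM in labelled-KO and 3.78, 3.52, 6.35 and 5.27 CPM in WT libraries at 18 h. Lipg, the endothelial lipase, had 268, 328 and 343 CPM in labelled-KO and 104, 83.5, 124 and 128 CPM in WT libraries at 18 h. All 3 were higher in every labelled-KO than in every WT library at 18 h. Slamf1 and Lipg had only 2 and 1 counts over the labelled-KO libraries at 0 h, so no fitted response is given for them; their KO minus WT at 18 h was 2.47 ± 0.20 (adjusted p = 2.4e-08) and 1.51 ± 0.19 (adjusted p = 8.6e-06) on the log2 scale. The interaction call of Lipg ended under 12 alternatives, among them limma-voom, the neutrophil covariate and the fit without labelled-KO number 4.

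Promoters of the named genes that differed only at 18 h were read from RefSeq on GRCm38.p6, from 250 bases before to 50 bases after the start, to show the letters beside the genes with the largest interactions of either sign. Of 16 such genes, 8 with positive and 8 with negative interactions, Lipg and Nos2 are not in the table, and 3 held a match to one of 5 motifs searched on both strands. Those 3 are Ch25h (chr19:34475099-34475398, minus strand), Apol9b (chr15:77728822-77729121, plus strand) and Il6 (chr5:30012864-30013163, plus strand), printed with the matches in capitals. The capitals mark a cyclic AMP element (TGACGTCA) in Ch25h, a pair of overlapping interferon-type matches (GAAANNGAA, on the other strand) and then an AP-1 match (TGANTCA) in Apol9b, and an AP-1 match and then an NF-kB match (GGANTTTCC) in Il6.
Ch25h: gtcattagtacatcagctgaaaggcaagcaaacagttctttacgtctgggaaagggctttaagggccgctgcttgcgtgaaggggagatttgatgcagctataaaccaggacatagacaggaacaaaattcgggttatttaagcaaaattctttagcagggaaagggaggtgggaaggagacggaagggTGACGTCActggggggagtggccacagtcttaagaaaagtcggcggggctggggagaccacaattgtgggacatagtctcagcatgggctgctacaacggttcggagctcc
Apol9b: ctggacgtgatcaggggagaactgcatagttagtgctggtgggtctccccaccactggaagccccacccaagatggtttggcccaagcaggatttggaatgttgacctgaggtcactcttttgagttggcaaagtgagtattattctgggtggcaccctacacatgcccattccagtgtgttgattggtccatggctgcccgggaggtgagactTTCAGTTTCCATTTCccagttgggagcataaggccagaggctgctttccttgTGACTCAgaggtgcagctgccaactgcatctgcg
Il6: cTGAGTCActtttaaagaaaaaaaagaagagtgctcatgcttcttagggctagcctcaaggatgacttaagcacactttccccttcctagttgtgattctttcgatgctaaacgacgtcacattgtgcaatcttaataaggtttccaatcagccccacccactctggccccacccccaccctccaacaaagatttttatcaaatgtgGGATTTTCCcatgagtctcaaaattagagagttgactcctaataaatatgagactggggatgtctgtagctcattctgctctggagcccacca
A match is a description of the letters and not a site of binding. The Nur77 element (AAAGGTCA) was in none of the searched promoters of named genes.

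Over the whole classes, promoters were in the table for 648 of the 812 genes higher only at 18 h, for 804 of the 977 lower only at 18 h and for 9984 of the genes tested. AP-1 matches were in 6.64% of the higher class, 3.61% of the lower class, 5.09% of the genes tested and 7.81% of all 32851 promoters. NF-kB matches were in 2.01%, 1.12%, 1.34% and 1.25% of the same sets, and interferon-type matches in 9.1%, 8.33%, 7.47% and 8.56%. The Nur77 element was in 0.772%, 1.12%, 0.881% and 1.51%, and the cyclic AMP element in 3.09%, 2.86%, 3.25% and 1.79%. No motif contains another, though matches can overlap. These shares are descriptions, and no test of them was made.

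**Figure D2:**
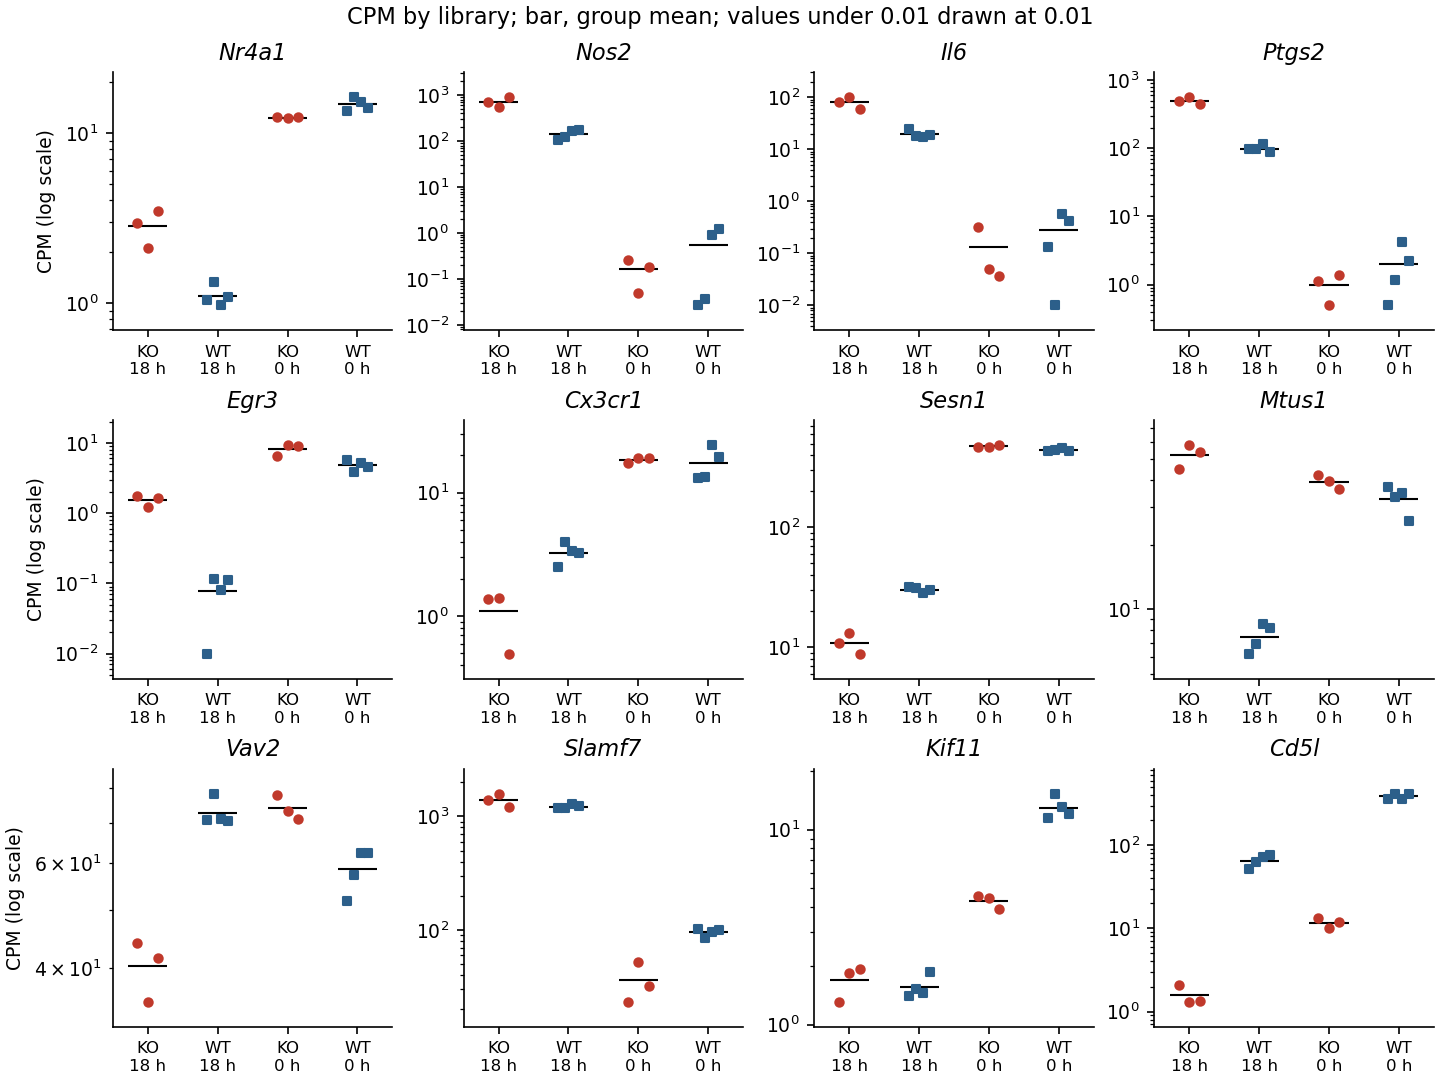
CPM (log axis) of 12 genes in each library, with KO 18 h, WT 18 h, KO 0 h and WT 0 h from left to right, each point 1 library and each bar a group mean; values under 0.01 are drawn at 0.01. Nos2, Il6 and Ptgs2 separate at 18 h and overlap at 0 h, Slamf7 and Kif11 separate at 0 h and overlap at 18 h, and Cd5l is about as far apart at both times.

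The genes that were lower in labelled-KO cells only at 18 h were led by Sumo2, Prxl2b, Cx3cr1, Scamp5, Sesn1, Tars2, Rogdi and Arhgap19, 6 of which fell in both genotypes and fell further in labelled-KO cells. Sesn1, a sestrin that restrains the growth kinase complex mTORC1, had 10.8, 13.2 and 8.82 CPM in labelled-KO and 31.6, 31.2, 28.2 and 29.9 CPM in WT libraries at 18 h. At 0 h Sesn1 had 470, 469 and 485 CPM in labelled-KO and 434, 444, 465 and 432 CPM in WT libraries. Labelled-KO libraries were below all WT libraries at 18 h and above all of them at 0 h, by a margin that did not pass the test (0.10, adjusted p = 0.85). Its LPS response was -5.45 in labelled-KO and -3.87 in WT cells, an interaction of -1.57 ± 0.28 (adjusted p = 0.00067). Cx3cr1, the receptor of the chemokine fractalkine, had 1.39, 1.4 and 0.498 CPM in labelled-KO and 2.5, 3.95, 3.38 and 3.23 CPM in WT libraries at 18 h. At 0 h Cx3cr1 had 17.4, 19.2 and 18.9 CPM in labelled-KO and 13.2, 13.5, 24.1 and 19.3 CPM in WT libraries. Its groups were apart at 18 h and overlapped at 0 h, and the interaction was -1.71 ± 0.36 (adjusted p = 0.0028).

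Scamp5, a membrane protein of secretory vesicles, had 6.44, 5.08 and 6.12 CPM in labelled-KO and 19, 16.6, 15.1 and 16.7 CPM in WT libraries at 18 h (interaction -1.67 ± 0.18, adjusted p = 3.9e-06). Prxl2b, a prostamide and prostaglandin F synthase, had 6.53, 4.73 and 5.9 CPM in labelled-KO and 17.5, 16.2, 14.8 and 15.9 CPM in WT libraries at 18 h (interaction -1.80 ± 0.26, adjusted p = 0.00012), and in WT cells its change with LPS was not called (-0.29, adjusted p = 0.11). Tars2, the mitochondrial threonyl-tRNA synthetase, had an interaction of -1.56 ± 0.24 (adjusted p = 0.0002). Arhgap19, a GTPase-activating protein, had an LPS response of -5.58 in labelled-KO and -4.18 in WT cells (interaction -1.40 ± 0.23, adjusted p = 0.0003). Rogdi had an interaction of -1.49 ± 0.40 (adjusted p = 0.013), a call that ended in limma-voom and without labelled-KO number 3 at 18 h (range -1.74 to -1.12). Sumo2, the small ubiquitin-like modifier, has many near-identical copies and is uncertain; it had 14.4, 10.9 and 10.2 CPM in labelled-KO and 15, 47.7, 27.5 and 32.5 CPM in WT libraries at 18 h (interaction -2.03 ± 0.43, adjusted p = 0.0027).

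Immediate early genes, a list of 31 tested members, responded higher in labelled-KO cells in 17 and lower in none, with a median interaction of 0.81 on the log2 scale, beside 8.57% higher, 9% lower and a median of -0.01 over all genes tested. Without labelled-KO number 4 the count was 12, and over all alternatives it ran from 12 to 20. Of the 17, 13 differed between genotypes only at 18 h, 1 only at 0 h and 3 at both times with opposite signs. At 18 h, 20 members were higher and none lower in labelled-KO cells (median 0.68), and at 0 h, 1 was higher and 5 were lower (median -0.06). Of all genes tested, 16.6% were higher and 15.6% lower at 18 h, and 1.11% higher and 2.87% lower at 0 h. Egr3, a zinc finger factor of the early growth response family, had 1.74, 1.23 and 1.64 CPM in labelled-KO and 0, 0.117, 0.0804 and 0.113 CPM in WT libraries at 18 h. At 0 h Egr3 had 6.41, 9.21 and 8.96 CPM in labelled-KO and 5.67, 3.91, 5.25 and 4.5 CPM in WT libraries. Egr3 thus fell in both genotypes and was nearly gone from WT cells only, with an interaction of 3.34 ± 0.78 (adjusted p = 0.0062).

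The other Nr4a receptors and the MAP kinase phosphatases behaved alike in direction. Nr4a3 had 0.871, 0.788 and 0.64 CPM in labelled-KO and 0.061, 0.0391, 0.322 and 0.0566 CPM in WT libraries at 18 h, with an interaction of 2.48 ± 0.64 (adjusted p = 0.011), and Nr4a2 had 6.88, 7.36 and 4.69 CPM in labelled-KO and 2.26, 3.83, 4.02 and 2.44 CPM in WT libraries at 18 h, with an interaction of 1.37 ± 0.33 (adjusted p = 0.0077). Nr4a2 lost its call with the neutrophil covariate (range 1.17 to 1.54). Dusp5, a nuclear phosphatase of ERK, had 15.7, 13.2 and 20.1 CPM in labelled-KO and 5.07, 4.77, 5.15 and 5.15 CPM in WT libraries at 18 h. At 0 h Dusp5 had 4.02, 4.78 and 3.82 CPM in labelled-KO and 7.03, 10.2, 9.02 and 7.69 CPM in WT libraries. It rose in labelled-KO and fell in WT cells, and the order of the genotypes turned round between the times (interaction 2.72 ± 0.24, adjusted p = 4.7e-07). Dusp1 and Dusp6, which act on p38 and JNK and on ERK, also turned round, with interactions of 1.54 ± 0.19 (adjusted p = 2.3e-05) and 1.22 ± 0.17 (adjusted p = 5.6e-05). Dusp4 differed only at 18 h (1.91 ± 0.43, adjusted p = 0.0047).

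Further members of that list included Fosl2, an AP-1 subunit that rose slightly in labelled-KO cells (0.40) and fell in WT cells (-0.84), an interaction of 1.24 ± 0.23 (adjusted p = 0.00088). Klf4, a Kruppel-like factor, had 11.5, 9.37 and 15.4 CPM in labelled-KO and 2.99, 3.52, 3.22 and 4.42 CPM in WT libraries at 18 h (interaction 1.39 ± 0.41, adjusted p = 0.023, ended by 4 alternatives including the fit without labelled-KO number 4, over a range of 1.05 to 1.54). Zfp36, which encodes tristetraprolin, the protein that speeds the decay of cytokine mRNAs, had 826, 754 and 785 CPM in labelled-KO and 487, 502, 499 and 485 CPM in WT libraries at 18 h. At 0 h Zfp36 had 123, 126 and 114 CPM in labelled-KO and 140, 112, 120 and 125 CPM in WT libraries. Its interaction of 0.72 ± 0.10 (adjusted p = 0.00012) was small and held under every alternative. Fos was the member that differed only at 0 h: it had 78.4, 74 and 78.8 CPM in labelled-KO and 67.8, 70.9, 70.2 and 67.1 CPM in WT libraries at 18 h. At 0 h Fos had 35.4, 42.6 and 38.3 CPM in labelled-KO and 54.3, 62.6, 63 and 64 CPM in WT libraries (interaction 0.81 ± 0.18, adjusted p = 0.0038).

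Cytokines responded higher in labelled-KO cells in 8 of 24 tested members (33.3%, beside 8.57% over all genes tested) and lower in none. The median interaction was 1.19, or 1.01 without 3 members that had at most 3 counts in some group. All 24 interactions were above 0. Without labelled-KO number 4 the count was 5, and with replicate numbers as a block within genotype it was 13. At 18 h, 18 members were higher and none lower in labelled-KO cells, beside 16.6% and 15.6% of all genes tested. Il1a, the gene of interleukin-1 alpha, had 935, 1330 and 706 CPM in labelled-KO and 295, 258, 208 and 250 CPM in WT libraries at 18 h. At 0 h Il1a had 3.55, 5.27 and 5.11 CPM in labelled-KO and 4.21, 3.58, 5.78 and 4.03 CPM in WT libraries. The genotypes overlapped before LPS and lay far apart after it (interaction 1.88 ± 0.28, adjusted p = 0.00013). Il1b, the gene of interleukin-1 beta, had 2094, 2552 and 1771 CPM in labelled-KO and 1150, 842, 771 and 980 CPM in WT libraries at 18 h (interaction 1.70 ± 0.30, adjusted p = 0.00074).

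Il1rn, which encodes the antagonist that blocks the interleukin-1 receptor, moved with them. It had 7596, 9344 and 8950 CPM in labelled-KO and 4396, 4208, 5068 and 5435 CPM in WT libraries at 18 h. At 0 h Il1rn had 24.9, 20 and 27.2 CPM in labelled-KO and 33, 40.4, 30.2 and 47.4 CPM in WT libraries. It was higher in labelled-KO cells after LPS and lower before it (interaction 1.50 ± 0.22, adjusted p = 0.00014). Vegfa, the vascular growth factor gene, had 88.8, 79 and 99.5 CPM in labelled-KO and 28.5, 33.7, 35.6 and 26.5 CPM in WT libraries at 18 h, so that it fell in both genotypes but less in labelled-KO cells (interaction 1.50 ± 0.24, adjusted p = 0.00025). Il27, a subunit of interleukin-27, had an interaction of 1.45 ± 0.28 (adjusted p = 0.0016), and Osm, oncostatin M, one of 1.01 ± 0.22 (adjusted p = 0.004) that was lost without labelled-KO number 4 (range 0.78 to 1.18). Tnf differed from these: it had 268, 213 and 174 CPM in labelled-KO and 246, 217, 191 and 209 CPM in WT libraries at 18 h. At 0 h Tnf had 4.02, 6.21 and 3.74 CPM in labelled-KO and 6.57, 7.2, 10.6 and 11.4 CPM in WT libraries. The genotypes overlapped after LPS, so its interaction of 0.95 ± 0.28 (adjusted p = 0.022, ended by 4 alternatives, each leaving out labelled-KO libraries, over a range of 0.78 to 1.23) went with the lower level before it.

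**Figure D3:**
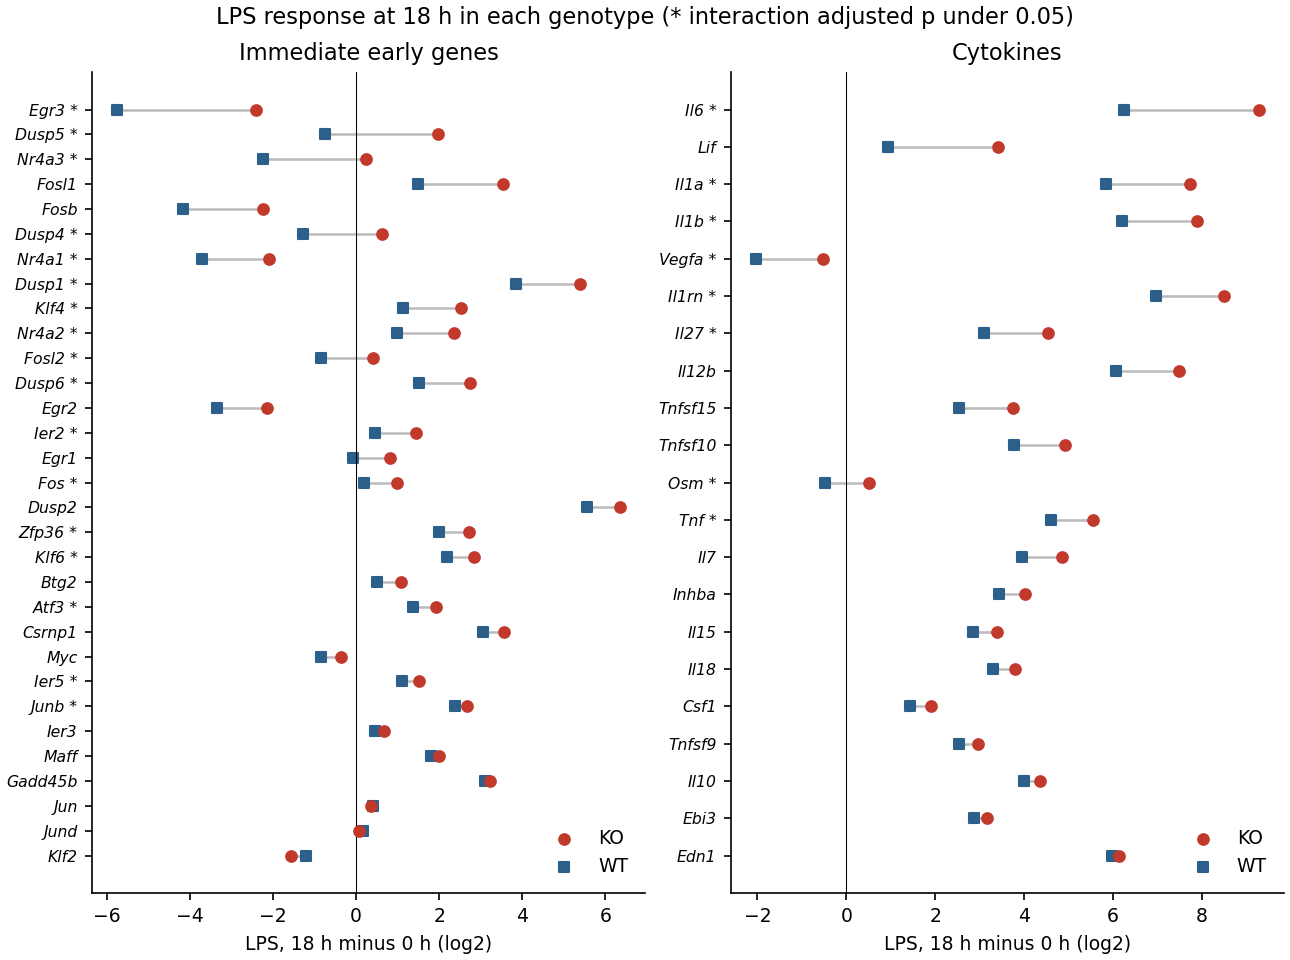
LPS response at 18 h (18 h minus 0 h, log2) of each tested immediate early gene and of the 21 cytokines with more than 3 counts in every group, with circles for labelled KO, squares for WT and a star for an interaction at an adjusted p under 0.05. The circle lies to the right of the square for 28 of 31 immediate early genes and for every cytokine shown.

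Chemokines responded higher in labelled-KO cells in 8 of 23 tested members (34.8%) and lower in 1 (4.35%), beside 8.57% and 9% over all genes tested. The median was 1.06 (1.01 without 1 member of few counts). The count of 8 was fragile: it was 4 without labelled-KO number 4 at all times and without labelled-KO number 3 at 0 h. It was 5 without labelled-KO number 3 or 4 at 18 h, number 4 at 0 h, WT number 1, 2 or 4 at 18 h or WT number 3 at 0 h. Cxcl2, a neutrophil attractant, had 27.7, 42 and 30.7 CPM in labelled-KO and 16.7, 15.1, 14.5 and 21.2 CPM in WT libraries at 18 h. At 0 h Cxcl2 had 2.01, 2.32 and 1.82 CPM in labelled-KO and 3.38, 3.26, 3.72 and 4.12 CPM in WT libraries. It was higher in labelled-KO cells after LPS and lower before it, with an interaction of 1.80 ± 0.26 (adjusted p = 0.00011) that held under every alternative. Cxcl10, an attractant of T cells, had 5204, 5131 and 5144 CPM in labelled-KO and 2776, 2563, 3015 and 2748 CPM in WT libraries at 18 h, but its interaction of 1.11 ± 0.35 (adjusted p = 0.034) ended under 13 alternatives (range 0.86 to 1.61), and that of Cxcl9 (2.40 ± 0.82, adjusted p = 0.046) under 16 (range 1.91 to 3.00). Ccl8 was the member in the lower direction: it had 62.9, 36.3 and 54.3 CPM in labelled-KO and 41.1, 33.3, 46.8 and 39.5 CPM in WT libraries at 18 h. At 0 h Ccl8 had 8.63, 4.88 and 4.56 CPM in labelled-KO and 1.94, 1.23, 2.19 and 1.78 CPM in WT libraries. Ccl8 was thus already higher before LPS and overlapped after it (interaction -1.38 ± 0.31, adjusted p = 0.0045).

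NF-kB subunits, inhibitors and targets had a median interaction of 0.48. They responded higher in labelled-KO cells in 16 of 35 tested members (45.7%) and lower in 1 (2.86%), beside 8.57% and 9% over all genes tested. The count ran from 11 to 20 over the alternatives and was 11 without labelled-KO number 4. Traf1, a signalling adaptor of the TNF receptors, had 212, 174 and 168 CPM in labelled-KO and 118, 100, 93.5 and 101 CPM in WT libraries at 18 h (interaction 1.42 ± 0.34, adjusted p = 0.007). Cd80, a costimulatory ligand for T cells, had 22.2, 20.4 and 26.7 CPM in labelled-KO and 7.99, 8.22, 10.2 and 10.6 CPM in WT libraries at 18 h. At 0 h Cd80 had 11.9, 11.8 and 12.4 CPM in labelled-KO and 13.1, 12.6, 11.1 and 11.9 CPM in WT libraries. From a shared starting level it rose in labelled-KO and fell in WT cells (interaction 1.35 ± 0.15, adjusted p = 8.9e-06). Rnd1, an atypical small GTPase, was the member in the lower direction (-1.42 ± 0.38, adjusted p = 0.015) and differed only at 0 h, where it was higher in labelled-KO cells. That call ended in limma-voom and with the neutrophil covariate (range -1.68 to -1.04).

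Interferon-stimulated genes gave a weaker and less stable picture. Of 51 tested members, 6 responded higher in labelled-KO cells and none lower, a share of 11.8% beside 8.57% over all genes tested, with a median of 0.40. The count was 1 without labelled-KO number 4, 1 with the neutrophil covariate (median 0.01), 3 without labelled-KO number 3 or number 4 at 0 h, 20 without labelled-KO number 2 at 0 h and 10 in DESeq2. The median was 0.77 without labelled-KO number 2, 0.22 without number 3 and 0.26 without number 4 at 0 h, and 0.11 without WT number 1 at 0 h. At 18 h, 27 members were higher and 1 was lower in labelled-KO cells, beside 16.6% and 15.6% of all genes tested. Gbp5, a guanylate-binding protein that promotes inflammasome assembly, had 1988, 1943 and 1899 CPM in labelled-KO and 764, 761, 890 and 810 CPM in WT libraries at 18 h (interaction 1.10 ± 0.29, adjusted p = 0.012, lost with the neutrophil covariate and without labelled-KO number 4, over a range of 0.87 to 1.46). Cmpk2, a mitochondrial nucleotide kinase, had 9164, 9129 and 9423 CPM in labelled-KO and 4642, 4833, 5697 and 5456 CPM in WT libraries at 18 h, and its interaction of 0.92 ± 0.30 (adjusted p = 0.039) ended under 15 alternatives (range 0.66 to 1.32). Ddx58, the gene of the viral RNA sensor RIG-I, was lower in labelled-KO cells at both times, with 533, 467 and 497 CPM in labelled-KO and 792, 865, 882 and 825 CPM in WT libraries at 18 h, and 43.5, 22.4 and 22.4 CPM in labelled-KO and 142, 81.5, 85.6 and 81 CPM in WT libraries at 0 h. The gap narrowed with LPS (0.98 ± 0.28, adjusted p = 0.02, ended by 4 alternatives including both of those, over a range of 0.56 to 1.37).

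Enzymes of immune metabolism and lipid mediators had calls in both directions. Of 21 tested members, 6 (28.6%) responded higher, among them Nos2, Ptgs2 and Ch25h, beside 8.57% over all genes tested. Another 2 (9.52%) responded lower, which is near the 9% over all genes tested. The median was 0.44. The higher count was 3 in limma-voom and 3 without labelled-KO number 4 (median 0.28). The lower count was 1 without labelled-KO number 2 or 3 at 0 h, labelled-KO number 3 at 18 h, WT number 1 at either time or WT number 3 at 18 h. Alox5ap, the protein that presents arachidonic acid for leukotriene synthesis, had 15.4, 16.4 and 16.8 CPM in labelled-KO and 29.8, 34.6, 33.8 and 37.3 CPM in WT libraries at 18 h. At 0 h Alox5ap had 104, 90.6 and 85 CPM in labelled-KO and 91.7, 93.5, 104 and 97.7 CPM in WT libraries. It fell in both genotypes and further in labelled-KO cells (interaction -1.01 ± 0.18, adjusted p = 0.00061). Ptgs1, the constitutive cyclooxygenase, had an LPS response of -6.04 in labelled-KO and -5.19 in WT cells (interaction -0.86 ± 0.28, adjusted p = 0.037, ended by 11 alternatives, over a range of -1.42 to -0.58). The inducible cyclooxygenase gene Ptgs2 thus had the opposite sign to Ptgs1.

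Genes of the citric acid cycle had a median interaction of -0.23. They responded lower in labelled-KO cells in 8 of 25 tested members (32.0%, beside 9% over all genes tested) and higher in none. That count was 2 without labelled-KO number 4 (median -0.21), 1 with the neutrophil covariate (median -0.14) and 5 without labelled-KO number 4 at 18 h (median -0.22). Idh2, the mitochondrial isocitrate dehydrogenase, had 3.05, 2.54 and 4.34 CPM in labelled-KO and 7.02, 7.51, 6.68 and 7.76 CPM in WT libraries at 18 h. At 0 h Idh2 had 62, 55.7 and 56.2 CPM in labelled-KO and 46.6, 54.3, 54.8 and 47.8 CPM in WT libraries. All labelled-KO libraries lay below all WT libraries at 18 h and above all of them at 0 h, where the difference of 0.19 did not pass the test (adjusted p = 0.36). The interaction of Idh2 was -1.30 ± 0.17 (adjusted p = 4.9e-05) and held under every alternative. Suclg2, a subunit of succinate-CoA ligase, had 2.52, 3.42 and 2.7 CPM in labelled-KO and 5.13, 5.13, 5.31 and 5.72 CPM in WT libraries at 18 h (interaction -0.79 ± 0.23, adjusted p = 0.024, ended by 4 alternatives including the fit without labelled-KO number 4, over a range of -0.92 to -0.68). Fh1, fumarate hydratase, was the member that differed only at 0 h, with 74.1, 47.9 and 56.8 CPM in labelled-KO and 34.1, 37.6, 39.8 and 37.1 CPM in WT libraries there (interaction -0.82 ± 0.22, adjusted p = 0.014, ended by the neutrophil covariate and without labelled-KO number 4, over a range of -0.95 to -0.63).

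Glycolysis and hypoxia genes responded higher in labelled-KO cells in 7 of 26 tested members (26.9%) and lower in 1 (3.85%), beside 8.57% and 9% over all genes tested. The median was 0.28. The higher count was 4 without labelled-KO number 4 (median 0.13) and 11 with median-of-ratios factors and in DESeq2. The median was 0.14 without labelled-KO number 4 at 18 h and 0.18 without WT number 2 at 0 h. Slc2a1, the glucose transporter GLUT1, had 117, 137 and 142 CPM in labelled-KO and 86.8, 75.9, 69.8 and 84.1 CPM in WT libraries at 18 h (interaction 0.95 ± 0.16, adjusted p = 0.00045), and Hif1a, the oxygen-regulated transcription factor subunit, had 688, 895 and 789 CPM in labelled-KO and 446, 417, 456 and 433 CPM in WT libraries at 18 h (interaction 0.90 ± 0.17, adjusted p = 0.0011). Slc16a1, the lactate and pyruvate carrier MCT1, fell less in labelled-KO cells (1.04 ± 0.28, adjusted p = 0.015, ended by 3 alternatives including the fit without labelled-KO number 4, over a range of 0.70 to 1.24). Hk2, a hexokinase, went the other way, at 97.2, 108 and 108 CPM in labelled-KO and 131, 138, 123 and 125 CPM in WT libraries at 18 h (interaction -0.55 ± 0.11, adjusted p = 0.0018). Cholesterol synthesis genes responded lower in 1 of 23 (4.35%) and higher in none (median -0.24), with 3 lower and 1 higher with the 14 libraries alone. The 1 in the lower direction was Dhcr7, the last reductase of that synthesis, with 2.61, 3.07 and 3.2 CPM in labelled-KO and 7.93, 8.14, 6.6 and 7.48 CPM in WT libraries at 18 h (interaction -1.38 ± 0.26, adjusted p = 0.0013). LXR targets and lipid handling genes were lower in 2 of 27 (7.41%) and higher in none (median 0.09). Both lower shares were under the 9% over all genes tested. The LXR and lipid handling genes in the lower direction included Scd2, a fatty acid desaturase (-1.07 ± 0.36, adjusted p = 0.045, ended by 16 alternatives, over a range of -1.44 to -0.84). The lower count of that list was 0 without labelled-KO number 2 at 0 h or number 3 at 18 h and 1 or 2 without any other library, and the median was 0.03 without labelled-KO number 2 at 0 h or WT number 1 at 18 h.

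Genes of adhesion and matrix, which bear on the mechanics of the cells, moved less uniformly. Integrin and adhesion genes were higher in 7 (18.4%) and lower in 2 (5.26%) of 38 (median 0.24). Over all genes tested the shares were 8.57% higher and 9% lower. The higher count was 5 without labelled-KO number 4, and the lower count was 1 or 2 on leaving out 1 library. The median was 0.09 without WT number 2 at 0 h, 0.12 without labelled-KO number 3 at 0 h and 0.14 without labelled-KO number 4 at 18 h. Thbs1, the matrix protein thrombospondin 1, had 11253, 14054 and 15569 CPM in labelled-KO and 4640, 5303, 6498 and 6727 CPM in WT libraries at 18 h. At 0 h Thbs1 had 932, 848 and 1020 CPM in labelled-KO and 973, 1172, 1024 and 910 CPM in WT libraries. Its groups were apart only after LPS (interaction 1.36 ± 0.26, adjusted p = 0.0012). Itgb3, the beta 3 integrin, had 1.13, 0.438 and 1.92 CPM in labelled-KO and 0.366, 0.43, 0.804 and 0.283 CPM in WT libraries at 18 h, which overlapped, and its interaction of 1.79 ± 0.51 (adjusted p = 0.02) ended under 4 alternatives including the fit without labelled-KO number 4 (range 1.19 to 2.16). Tln2, a talin that links integrins to actin, had 0.435, 0.701 and 0.925 CPM in labelled-KO and 0.061, 0.0391, 0.0804 and 0 CPM in WT libraries at 18 h, which is at most 3 counts over the WT group, so no fitted response is given. Itga6, the alpha 6 integrin, had 37.6, 35.7 and 42.3 CPM in labelled-KO and 67.3, 65.7, 75.1 and 68.9 CPM in WT libraries at 18 h (interaction -0.73 ± 0.12, adjusted p = 0.00039).

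Matrix turnover genes were higher in 6 (22.2%) and lower in 1 (3.7%) of 27 (median 0.84). Among all genes tested 8.57% were higher and 9% lower. The median was 0.46 without labelled-KO number 4, 0.30 without it at 18 h only, 0.38 without WT number 2 at 0 h, 0.40 in limma-voom and 0.41 with the stromal covariate. Mmp13, a collagenase, had 668, 923 and 972 CPM in labelled-KO and 352, 272, 349 and 372 CPM in WT libraries at 18 h (interaction 1.26 ± 0.28, adjusted p = 0.0046). Plaur, the urokinase receptor, had 60.2, 59 and 73.8 CPM in labelled-KO and 23.6, 16.8, 27.2 and 27.8 CPM in WT libraries at 18 h. At 0 h Plaur had 8.1, 11 and 11.5 CPM in labelled-KO and 8.62, 10.2, 11.3 and 13 CPM in WT libraries (interaction 1.50 ± 0.23, adjusted p = 0.0002). Both overlapped between genotypes before LPS only. Spp1, osteopontin, had 1038, 1446 and 1582 CPM in labelled-KO and 716, 797, 836 and 937 CPM in WT libraries at 18 h. At 0 h Spp1 had 1099, 1094 and 1241 CPM in labelled-KO and 1417, 2161, 1359 and 1396 CPM in WT libraries. Its change did not pass the test in labelled-KO cells (0.24, adjusted p = 0.23) and was a fall in WT cells, an interaction of 1.19 ± 0.24 (adjusted p = 0.0022). The stromal markers had a median interaction of 1.69 with none called. That median was 0.15 without labelled-KO number 4, 0.04 without labelled-KO number 4 at 18 h and -0.27 without WT number 2 at 0 h. With the stromal covariate Mmp13, Plaur, Spp1 and Thbs1 kept their calls. That fit cannot separate the markers from genotype, since 12 of the 13 tested were themselves higher in labelled-KO cells at 18 h (median 3.47). The part of stromal cells in the matrix genes was not tested.

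Actin cytoskeleton genes were higher in 9 (21.4%) and lower in 3 (7.14%) of 42 (median 0.18). All genes tested gave 8.57% higher and 9% lower, so the lower share of the list was under that level. The lower count was 1 without labelled-KO number 4 and with the neutrophil covariate. Fscn1, fascin, which bundles actin, had 16.5, 11.7 and 21.2 CPM in labelled-KO and 34, 26.6, 20.7 and 21 CPM in WT libraries at 18 h. At 0 h Fscn1 had 3.18, 2.76 and 4.22 CPM in labelled-KO and 0.586, 2.82, 1.14 and 0.844 CPM in WT libraries. It overlapped at both times, and neither difference was called, yet the interaction was -1.99 ± 0.49 (adjusted p = 0.008). Lsp1, an actin-binding protein of leukocytes, had 30.8, 24.5 and 29.4 CPM in labelled-KO and 17.9, 22.8, 25.6 and 21 CPM in WT libraries at 18 h. At 0 h Lsp1 had 77.1, 74.6 and 78.2 CPM in labelled-KO and 162, 120, 121 and 125 CPM in WT libraries. Its genotype difference was small after LPS and larger, with the opposite sign, before it (interaction 1.17 ± 0.19, adjusted p = 0.0004). Actn1, alpha-actinin, fell less in labelled-KO cells (1.01 ± 0.25, adjusted p = 0.009), a call lost without labelled-KO number 4 (range 0.77 to 1.22).

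Receptors of microbes and debris included members of both signs. Toll-like receptors and adaptors were higher in 4 (15.4%) and lower in 1 (3.85%) of 26 (median 0.15). The higher count was 2 with the neutrophil covariate, the lower count was 2 without labelled-KO number 2 or WT number 4 at 18 h, and the median was 0.08 without labelled-KO number 3 at 0 h. Cd14, the LPS co-receptor, had 857, 986 and 930 CPM in labelled-KO and 566, 410, 352 and 503 CPM in WT libraries at 18 h. At 0 h Cd14 had 207, 178 and 181 CPM in labelled-KO and 183, 230, 243 and 226 CPM in WT libraries (interaction 1.24 ± 0.22, adjusted p = 0.00083). Tlr3, the sensor of double-stranded RNA, had an interaction of 1.03 ± 0.25 (adjusted p = 0.0071) that was lost with the neutrophil covariate (range 0.70 to 1.13). Scavenger and apoptotic cell receptors were higher in 8 (28.6%) and lower in 4 (14.3%) of 28 (median 0.30), beside 8.57% and 9% over all genes tested. The count of 8 was 3 to 5 without labelled-KO number 4, without labelled-KO number 2 or 3 at 0 h, without labelled-KO number 4 at 18 h, or without WT number 1 or 2 at 18 h. The median was 0.10 without labelled-KO number 4 at 18 h. It was 0.16 without WT number 1 at 18 h, as it was when labelled-KO number 3 or 4 was left out at 0 h. Clec7a, the beta-glucan receptor dectin-1, had 131, 187 and 121 CPM in labelled-KO and 42.9, 63.9, 59 and 50.5 CPM in WT libraries at 18 h (interaction 1.63 ± 0.28, adjusted p = 0.00047). Scarb1, the HDL receptor, was lower at 18 h, with 9.4, 7.18 and 7.68 CPM in labelled-KO and 15.5, 15.5, 15.2 and 16.9 CPM in WT libraries (interaction -0.96 ± 0.15, adjusted p = 0.00025). Msr1, the class A scavenger receptor, had 1894, 2761 and 1930 CPM in labelled-KO and 1799, 1665, 1804 and 1802 CPM in WT libraries at 18 h. At 0 h Msr1 had 154, 140 and 168 CPM in labelled-KO and 274, 257, 252 and 254 CPM in WT libraries (interaction 1.06 ± 0.15, adjusted p = 0.0001).

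In the remaining lists up to 4 members were called in either direction, beside 8.57% higher and 9% lower over all genes tested. MHC class II genes were higher in 1 (8.33%) and lower in 1 of 12 (median 0.46). That higher count was unstable: it was 0 without labelled-KO number 4, without labelled-KO number 2 or 4 or WT number 2 at 18 h, and without labelled-KO number 3 or WT number 3 at 0 h. It was 3 without WT number 2 at 0 h and 4 in DESeq2 and with the block within genotype, and the lower count was 0 or 1. The higher one was Cd74, the invariant chain, with an interaction of 0.93 ± 0.29 (adjusted p = 0.032) that ended under 8 alternatives (range 0.78 to 1.07). IL-10, STAT and SOCS genes were higher in 3 (11.1%) and lower in 1 (3.7%) of 27 (median 0.16), with 5 higher without labelled-KO number 2 at 0 h, 7 in DESeq2 and a median of 0.08 without labelled-KO number 4. They were led by Nfil3, a bZIP repressor, with 45.4, 31.4 and 47.2 CPM in labelled-KO and 16.6, 14.6, 16.7 and 18.5 CPM in WT libraries at 18 h (interaction 1.03 ± 0.19, adjusted p = 0.00094). Lysosomal enzymes were higher in 2 (6.9%) and lower in 2 of 29, with a median of -0.02 that ran from -0.07 to 0.03 over the alternatives, and Nrf2 and antioxidant genes were higher in 1 (4.76%) and lower in none of 21 (median 0.14; 1 to 3 higher over the alternatives). Genes of the unfolded protein and integrated stress response were lower in 4 (16.7%) and higher in 1 (4.17%) of 24 (median -0.06, range -0.12 to -0.01), among them Sdf2l1 and Herpud1, both acting in the endoplasmic reticulum, with interactions of -0.77 ± 0.16 (adjusted p = 0.0021) and -0.74 ± 0.18 (adjusted p = 0.0088). Of the 15 macrophage markers, 3 were higher (20%) and 2 lower (13.3%), with a median of 0.04 that ran from -0.05 to 0.08. The higher ones included Cd14, with the highest interaction of that list (1.24), and Msr1, both described above with the receptors. The lower ones were Csf1r, the CSF1 receptor, with 591, 566 and 565 CPM in labelled-KO and 734, 732, 683 and 782 CPM in WT libraries at 18 h (interaction -0.55 ± 0.13, adjusted p = 0.0059), and Adgre1, the F4/80 antigen, with 2819, 2754 and 2378 CPM in labelled-KO and 4017, 4124, 3696 and 3949 CPM in WT libraries at 18 h (interaction -0.52 ± 0.12, adjusted p = 0.0067, lost without labelled-KO number 4, over a range of -0.57 to -0.44). Among dendritic cell markers 1 of 8 was higher (12.5%; median 0.14, range -0.24 to 0.57), Kmo, the kynurenine hydroxylase (1.30 ± 0.36, adjusted p = 0.017, ended by 4 alternatives, over a range of 0.99 to 1.56).

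**Figure D4:**
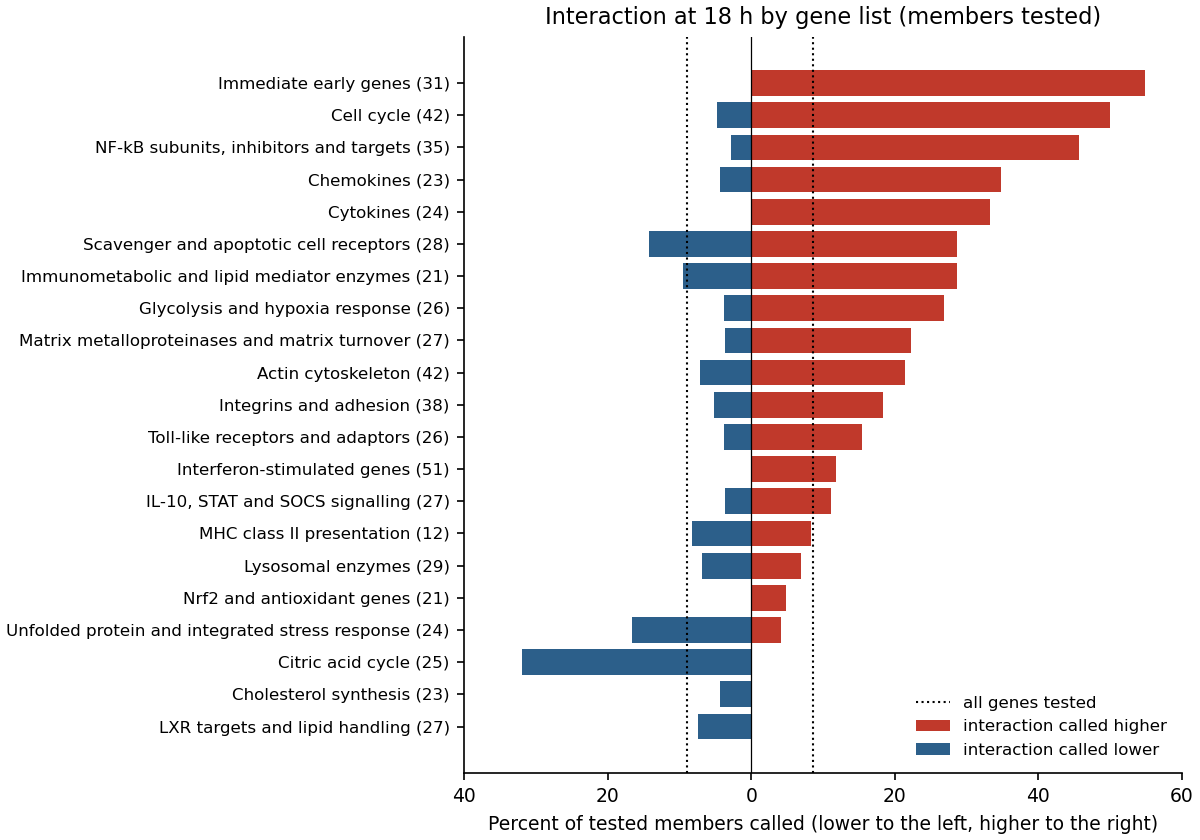
Percent of the tested members of each of 21 gene lists with an interaction called higher (to the right) or lower (to the left) in labelled-KO cells, with the number tested in brackets and dotted lines at the 8.57% and 9% of all genes tested. The longest bar to the right is that of immediate early genes (54.8%), followed by cell cycle and NF-kB genes (45.7% for NF-kB), and the longest to the left is that of citric acid cycle genes (32.0%).

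LPS responses ran in opposite directions in 78 genes, 41 that rose in labelled-KO and fell in WT cells and 37 the other way round. Mtus1, a microtubule-associated protein, had 45, 58.1 and 54.2 CPM in labelled-KO and 6.22, 6.93, 8.53 and 8.16 CPM in WT libraries at 18 h. At 0 h Mtus1 had 42.1, 39.6 and 36.4 CPM in labelled-KO and 37.3, 33.5, 34.7 and 25.9 CPM in WT libraries. Its LPS response was 0.42 in labelled-KO and -2.15 in WT cells (interaction 2.57 ± 0.19, adjusted p = 8e-08). Sesn3, another sestrin, had 12.4, 15.7 and 20.4 CPM in labelled-KO and 4.76, 4.85, 5.31 and 4.3 CPM in WT libraries at 18 h. At 0 h Sesn3 had 8.68, 8.28 and 8.78 CPM in labelled-KO and 8.3, 9.3, 9.5 and 6.19 CPM in WT libraries (interaction 1.72 ± 0.23, adjusted p = 5.6e-05). Sesn3 thus had the opposite sign to Sesn1. Pcdh7, a protocadherin, was higher in labelled-KO cells after LPS and lower before it (1.89 ± 0.23, adjusted p = 1.7e-05).

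In the other direction, Vav2, an exchange factor for small GTPases, had 44.1, 35.2 and 41.7 CPM in labelled-KO and 70.8, 78.3, 70.9 and 70.4 CPM in WT libraries at 18 h. At 0 h Vav2 had 78, 73.2 and 71.1 CPM in labelled-KO and 51.9, 57.3, 62.4 and 62.4 CPM in WT libraries. The genotypes did not overlap at either time and changed places between them (interaction -1.19 ± 0.13, adjusted p = 6.7e-06). Prkcb, the protein kinase C beta gene, had 192, 206 and 148 CPM in labelled-KO and 410, 424, 340 and 377 CPM in WT libraries at 18 h. At 0 h Prkcb had 282, 270 and 299 CPM in labelled-KO and 283, 286, 276 and 229 CPM in WT libraries (interaction -1.17 ± 0.16, adjusted p = 8.7e-05). Adk, adenosine kinase, fell in labelled-KO and rose in WT cells (-1.31 ± 0.16, adjusted p = 1.6e-05). Vav2, Prkcb and Adk held under every alternative.

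Of the interactions whose genotype difference passed the test at 0 h alone, 91 were in the higher and 18 in the lower direction. The cell cycle list held 16 of these 109 genes. Of its 42 tested members, 21 (50%) had a positive and 2 (4.76%) a negative interaction (median 0.87), beside 8.57% and 9% over all genes tested. Of these 23 genes, 16 differed only at 0 h, 5 at both times and 2 only at 18 h. KO minus WT of the list was lower for 33 members at 0 h (median -1.07), while at 18 h 6 were higher and 10 lower (median 0.04). Of all genes tested, 2.87% were lower at 0 h, and 16.6% were higher and 15.6% lower at 18 h. The count of 21 was 15 without labelled-KO number 4. Kif11, a mitotic spindle motor, had 1.31, 1.84 and 1.92 CPM in labelled-KO and 1.4, 1.53, 1.45 and 1.87 CPM in WT libraries at 18 h. At 0 h Kif11 had 4.55, 4.48 and 3.93 CPM in labelled-KO and 11.4, 15.3, 13.1 and 12 CPM in WT libraries. It fell less in labelled-KO than in WT cells, and the genotypes overlapped at 18 h and were apart at 0 h (interaction 1.70 ± 0.26, adjusted p = 0.0002).

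Cenpf, a kinetochore protein, and Ccnb1, the mitotic cyclin B1, were likewise called lower in labelled-KO cells at 0 h alone, with interactions of 2.85 ± 0.82 (adjusted p = 0.021) and 2.65 ± 0.76 (adjusted p = 0.02) that ended under 2 and 4 alternatives, the neutrophil covariate among them (ranges 2.28 to 3.28 and 2.36 to 3.15). KO minus WT of Cenpf was 0.83 at 18 h (adjusted p = 0.4) and -2.02 at 0 h, and that of Ccnb1 was 1.02 at 18 h (adjusted p = 0.25) and -1.63 at 0 h, so that the sign turned without a call at 18 h. Birc5, survivin, had 1.39, 0.788 and 0.996 CPM in labelled-KO and 0.305, 0.313, 0.563 and 0.453 CPM in WT libraries at 18 h. At 0 h Birc5 had 3.39, 2.17 and 2 CPM in labelled-KO and 5.51, 7.63, 6.22 and 7.31 CPM in WT libraries, so that it changed places (2.82 ± 0.45, adjusted p = 0.00027). Both members with a negative interaction act in or before DNA replication. Mcm2, a subunit of the replicative helicase, was lower in labelled-KO cells at both times, with 2.35, 2.8 and 2.92 CPM in labelled-KO and 10.4, 8.8, 8.61 and 7.7 CPM in WT libraries at 18 h, and 9.9, 11 and 9.26 CPM in labelled-KO and 15.1, 18.8, 15.8 and 18.1 CPM in WT libraries at 0 h (interaction -0.96 ± 0.18, adjusted p = 0.0013). The transcription factor gene E2f1 had an interaction of -0.46 ± 0.14 (adjusted p = 0.029) that ended under 10 alternatives (range -0.57 to -0.41).

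Outside the cell cycle list, Slamf7, a self-binding immune receptor, had 1391, 1591 and 1218 CPM in labelled-KO and 1195, 1185, 1277 and 1224 CPM in WT libraries at 18 h. At 0 h Slamf7 had 23.3, 52.2 and 32.3 CPM in labelled-KO and 102, 84.6, 95.5 and 100 CPM in WT libraries. The lower level in labelled-KO cells before LPS was made up by a larger rise (interaction 1.61 ± 0.24, adjusted p = 0.00012). Smpdl3b, a membrane phosphodiesterase, gave 1.68 ± 0.33 (adjusted p = 0.0015) in the same way. Gpr160, an orphan receptor, was higher in labelled-KO cells at 0 h, with 29.3, 28.3 and 27 CPM in labelled-KO and 18.5, 21.4, 20.2 and 17.7 CPM in WT libraries, and overlapped at 18 h (interaction -0.82 ± 0.22, adjusted p = 0.013). Nat8l, the N-acetylaspartate synthase, had an interaction of -1.40 ± 0.44 (adjusted p = 0.033) that ended under 8 alternatives (range -1.52 to -1.12). Its KO minus WT was -0.69 at 18 h, which was not called (adjusted p = 0.23), and 0.71 at 0 h.

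**Figure D5:**
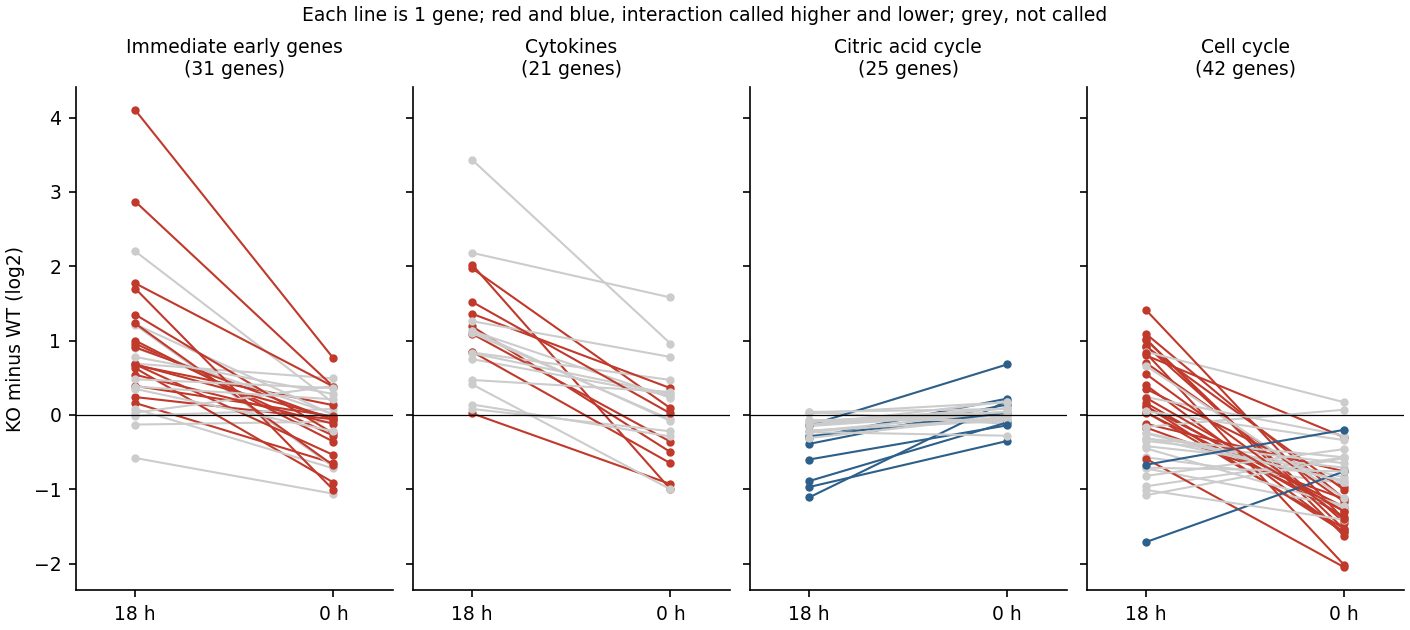
KO minus WT (log2) at 18 h (left) and 0 h (right) for tested members of 4 lists, 1 line per gene, in red or blue where the interaction was called higher or lower and grey where it was not. Members with at most 3 counts in some group are left out, which took out 3 cytokines. Lines of immediate early genes and cytokines spread above 0 at 18 h from near 0 at 0 h, citric acid cycle lines dip below 0 at 18 h, and most cell cycle lines lie below 0 at 0 h and around 0 at 18 h.

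Genes with a difference at both times and an interaction showed how far the order of the genotypes could turn. Prag1, a pseudokinase that signals to the cytoskeleton, had 18, 19.4 and 15.2 CPM in labelled-KO and 3.48, 3.4, 5.71 and 4.13 CPM in WT libraries at 18 h. At 0 h Prag1 had 1.01, 1.72 and 1.11 CPM in labelled-KO and 3.01, 4.67, 3.72 and 3.52 CPM in WT libraries. It rose in labelled-KO cells only by the test (WT change 0.14, adjusted p = 0.49), with an interaction of 3.63 ± 0.29 (adjusted p = 1.1e-07). Cytip, a protein that binds cytohesin and loosens integrin adhesion, had 18.8, 15.5 and 19.2 CPM in labelled-KO and 3.97, 3.6, 4.34 and 4.93 CPM in WT libraries at 18 h. At 0 h Cytip had 36.4, 35.7 and 43.4 CPM in labelled-KO and 72, 80.5, 84.1 and 81.5 CPM in WT libraries. It fell in both genotypes and far less in labelled-KO cells (3.14 ± 0.18, adjusted p = 6.6e-10). Bmp1, a procollagen protease, turned the other way (-2.53 ± 0.53, adjusted p = 0.0029).

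Eps8, an actin regulator, was lower at both times and more so after LPS, with 0.696, 0.788 and 0.782 CPM in labelled-KO and 3.6, 4.27, 6.52 and 5.95 CPM in WT libraries at 18 h, and 25.9, 18.2 and 20.9 CPM in labelled-KO and 41.1, 39.8, 41 and 30.4 CPM in WT libraries at 0 h (interaction -1.90 ± 0.34, adjusted p = 0.00078). Lcn2, lipocalin 2, is both a neutrophil granule gene and an LPS-induced macrophage gene; it had 236, 285 and 351 CPM in labelled-KO and 195, 143, 157 and 230 CPM in WT libraries at 18 h. At 0 h Lcn2 had 4.98, 8.38 and 6.48 CPM in labelled-KO and 0.798, 0.977, 2.06 and 2.3 CPM in WT libraries. Its excess in labelled-KO cells narrowed (-1.52 ± 0.36, adjusted p = 0.0069), and the call was lost with the neutrophil covariate (range -1.77 to -1.10). Of the 9 tested neutrophil markers, 8 were higher in labelled-KO cells at 0 h and 6 at 18 h, and Lcn2 alone had an interaction call. Trim30d, a member of a cluster of near-identical Trim genes and so uncertain, was higher in labelled-KO cells at 18 h (0.63) and lower at 0 h (-3.14), an interaction of 3.78 ± 0.36 (adjusted p = 1.2e-06).

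The 160 genes with a lasting difference and no interaction call show what LPS left in place. Cd5l, a secreted survival factor of macrophages, had 2.09, 1.31 and 1.35 CPM in labelled-KO and 51.4, 62.4, 71.3 and 76.6 CPM in WT libraries at 18 h. At 0 h Cd5l had 13.2, 10.2 and 11.8 CPM in labelled-KO and 362, 418, 360 and 412 CPM in WT libraries. Its difference was -5.37 at 18 h and -5.05 at 0 h, an interaction of -0.33 ± 0.28 (adjusted p = 0.46). Eya1, a developmental phosphatase, had a difference of -3.13 at 18 h and -4.75 at 0 h. With under 1 CPM in every labelled-KO library, its interaction had a wide error (1.61 ± 1.16, adjusted p = 0.37). Adra1a, an alpha 1 adrenergic receptor, had 75.5, 67.6 and 73.3 CPM in labelled-KO and 12.3, 16.6, 21.8 and 18.7 CPM in WT libraries at 18 h. At 0 h Adra1a had 29.5, 37 and 39.6 CPM in labelled-KO and 7.16, 10.1, 10.9 and 11.8 CPM in WT libraries (interaction 0.22 ± 0.35, adjusted p = 0.7). Kcnab1, a potassium channel subunit, was higher by 1.74 at 18 h and by 1.83 at 0 h (interaction -0.10 ± 0.35, adjusted p = 0.89).

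Members of families with near-identical copies, whose counts are uncertain, gave some of the widest lasting gaps. Ifi202b, an interferon-inducible gene of the p200 family, had 1469, 972 and 1390 CPM in labelled-KO and 0.244, 0.391, 0.322 and 1.76 CPM in WT libraries at 18 h. At 0 h Ifi202b had 223, 58 and 165 CPM in labelled-KO and 0.0798, 0, 0.0438 and 0.141 CPM in WT libraries (interaction -0.18 ± 0.97, adjusted p = 0.93). Ifi214, of the same family, was higher by 2.29 at 18 h and by 1.95 at 0 h (interaction 0.34 ± 0.62, adjusted p = 0.75). Trim12a had 2.18, 0.35 and 0.925 CPM in labelled-KO and 27.6, 27.9, 30.6 and 31 CPM in WT libraries at 18 h. At 0 h Trim12a had 0.529, 0.296 and 0.333 CPM in labelled-KO and 13.9, 8.18, 10.2 and 10.3 CPM in WT libraries (interaction 0.12 ± 0.46, adjusted p = 0.9). Trim30b had a difference of -2.13 at 18 h and -3.30 at 0 h (interaction 1.17 ± 0.81, adjusted p = 0.34). An interaction that missed the threshold does not show that the responses were equal.

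The 4 h libraries are separate from the 14, though they carry the same numbers, and were set beside the classes. KO minus WT at 4 h was called for 697 genes (5.56%), 359 higher (2.87%) and 338 lower (2.7%). Of the 812 genes that were higher only at 18 h, 64 (7.88%) were also higher at 4 h and 12 (1.48%) lower, and the 64 are 17.8% of the genes higher at 4 h. Of the 977 that were lower only at 18 h, 51 (5.22%) were also lower at 4 h and 13 (1.33%) higher, and the 51 are 15.1% of the genes lower at 4 h. The median KO minus WT of the higher class was -0.09 at 0 h, 0.04 at 4 h and 0.63 at 18 h, and that of the lower class 0.07 at 0 h, -0.1 at 4 h and -0.61 at 18 h. The 0 h and 18 h medians are set by how the classes were chosen, and the 4 h medians are not.

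Some named genes were already apart at 4 h. Mtus1 had 63.1, 76.1 and 78.7 CPM in labelled-KO and 12.6, 14.9, 18.1 and 15.9 CPM in WT libraries at 4 h (KO minus WT 2.25). Slamf1 had 310, 214 and 365 CPM in labelled-KO and 84.9, 89.2, 95.1 and 88.7 CPM in WT libraries at 4 h (1.73), and Egr3 had 5.52, 6.63 and 5.99 CPM in labelled-KO and 2.7, 0.469, 0.366 and 0.582 CPM in WT libraries (2.47). Each of these was higher in every labelled-KO than in every WT library. Sesn1 was lower in labelled-KO cells at 4 h (-1.11). Nr4a1 had the opposite sign at 4 h and 18 h, with 0.531, 0.869 and 1.21 CPM in labelled-KO and 7.25, 2.16, 1.74 and 1.3 CPM in WT libraries at 4 h (-1.77), and Fos and Dusp1 were likewise lower at 4 h (-0.81 and -0.70). Nos2, Ptgs2, Il6, Il1a and Il1b were not called at 4 h.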

How the data were processed

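Poly(A) RNA was sequenced in 21 libraries, made with KAPA mRNA HyperPrep reagents from RNeasy mini kit RNA, per the labels' protocols. The submitters' processing notes name CASAVA 1.8.2, HISAT2 2.1.0 and the mm10 build. The sources used here name no counting tool or strand setting, and genes with near-identical or overlapping copies are uncertain. Each deposited value is an estimated count for a RefSeq transcript, a multiple of 0.5 (70.4% were whole) that the authors did not scale to depth. Values were rounded to whole numbers, 0.5 upward. The design had assumed whole-number counts.

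Of 42361 transcript IDs, 42203 matched a RefSeq table and 65 a GENCODE annotation of the build. The other 93 lacked a gene name and were left out, with 0.232 to 2.229% of each library's counts. Transcripts of 8193 genes with several carried nearly the same reads (second over first, median 0.9923), so the one with the highest mean stood for each of 25067 genes. Deposited totals were 23478281.5 to 55852932 per library. No pair of libraries of a group agreed within sampling noise (lowest chi-square per gene 6.74).

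The quasi-likelihood test of edgeR 4.0.16 was run in R 4.3.3 with 6 group means over 21 libraries, trimmed mean of M-values factors, edgeR's default filter and Benjamini-Hochberg adjustment over 12529 genes at a threshold of 0.05. Standard errors are the log2 fold change over the square root of F. CPM values use those factors. The script was tested on simulated counts with known changes. Named genes were Nr4a1 and, at 10 CPM or more in some group, the largest interactions of each class and the leading or described members of each list; 1 that the rule chose is not reported here. Gene lists are given as counts beside all genes tested, with no set test. The members and lists were chosen with earlier results of these data known. Alternatives were median-of-ratios and upper-quartile factors, DESeq2 1.42.0, limma-voom (limma 3.58.1), 2 other filters, the 14 libraries alone, replicate blocks, summed transcripts, stromal or neutrophil marker means as covariates, and leaving out labelled-KO number 4 or each library. Figures used matplotlib 3.10.9 in Python 3.11.15.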

Additional observations from a re-analysis of the deposited data

Results flagged for a closer look

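The response to LPS differed between genotypes by the test of the interaction in 2202 genes. Among named genes, those with responses called in opposite directions had interactions, on the log2 scale, of 2.72 for Dusp5, 2.57 for Mtus1, 1.89 for Pcdh7, 1.72 for Sesn3, 1.35 for Cd80, 1.24 for Fosl2 and 1.01 for Osm in the higher direction. In the lower direction they were -2.03 for Sumo2, -1.31 for Adk, -1.19 for Vav2 and -1.17 for Prkcb.

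Single WT libraries stood outside their group of 4 by Dixon's criterion in 13 of 216 groups of named genes, where chance gives about 1 in 20. At 18 h these were Il6 in WT number 1 (24.7 CPM), Nr4a3 in number 3 (0.322 CPM), Rnd1 in number 4 (6.4 CPM), Msr1 in number 2 (1665 CPM), Vav2 in number 2 (78.3 CPM) and Ifi202b in number 4 (1.76 CPM). At 0 h they were Slamf1 in WT number 3 (0.438 CPM), Fos in number 1 (54.3 CPM), Rnd1 in number 2 (0.109 CPM), Ddx58 in number 1 (142 CPM), Lsp1 in number 1 (162 CPM), Spp1 in number 2 (2161 CPM) and Eps8 in number 4 (30.4 CPM). The labelled-KO groups of 3 were not tested for this.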

How the results depend on the processing

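Without labelled-KO number 4 at any time there were 1268 interactions, 692 higher and 576 lower, 970 with a difference only at 18 h, 47 at both times, and 105 lasting differences with no interaction. The neutrophil covariate gave 1244 interactions, 712 higher and 532 lower, 801 only at 18 h, 13 only at 0 h, 9 at both times and 25 lasting differences. Interactions with a difference at both times numbered 149 in DESeq2 and 50 with the stromal covariate. Leaving out each library in turn gave 1528 to 2201 interactions, 745 to 1092 higher, 777 to 1109 lower, 1236 to 1759 only at 18 h, 69 to 116 only at 0 h, 51 to 92 at both times and 112 to 218 lasting differences. The count only at 0 h was 71 and 69 without labelled-KO number 2 and number 3 at 0 h, and the count at both times was 60, 51 and 61 without numbers 2, 3 and 4 at 0 h. The cause was not tested, though fits with fewer libraries have less precision by construction.

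Of 100 named genes with an interaction, 67 kept their call under all 27 alternatives, and no called interaction changed sign. Signs changed only among lasting differences that were never called: Ifi202b in limma-voom (0.26), in the block within genotype (0.14), in the shared block (0.19), with the neutrophil covariate (0.12) and on leaving out 1 library (0.21 to 0.86 where reversed, -0.62 to 0.86 in all); Kcnab1 in limma-voom (0.00), without labelled-KO number 4 (0.27) and on leaving out 1 library (0.00 to 0.32 where reversed, -0.32 to 0.32 in all); Trim12a in limma-voom (-0.19), with summed transcripts (-0.05) and on leaving out 1 library (-0.65 to -0.01 where reversed, -0.65 to 0.51 in all); and Ifi214 with the neutrophil covariate (-0.06) and on leaving out WT number 1 at 0 h (-0.39, the lowest of -0.39 to 0.85 on leaving out 1 library).

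Whether replicate numbers pair the 18 h and 0 h libraries was checked by correlating deviations from the group means. Same-numbered libraries correlated at 0.25, -0.07 and 0.21 in labelled KO and at -0.01, -0.09, -0.12 and 0.18 in WT, which is too uneven to treat the numbers as pairs, and not every library correlated best with its own number. The labels do not say whether a number marks a shared culture. With the replicate number as a block shared by both genotypes the interactions numbered 2239 (1110 higher, 1129 lower), and with the replicate block within each genotype 2414 (1204 higher, 1210 lower), a fit that leaves the difference at 0 h without an estimate and so gives no class counts. Genes with few counts at 0 h, such as Il6, Ch25h and Apol9b, are limited by depth there.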
